A study of Mus musculus with 26 samples.

Results

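The genes described here are 40 cell cycle and DNA replication genes, chosen by name and found in the tables of all 26 libraries, out of 24421 genes listed. They fall into 15 replication genes (the Mcm and Gins helicase subunits, the loading factors Cdc6 and Cdt1, the nucleotide enzymes Rrm1, Rrm2 and Tyms, Pcna and Uhrf1), 2 cyclins of S phase entry (Ccne1 and Ccne2) and 23 mitotic genes. All 40 were tested. In undamaged hearts 33 of them reached the level of the low-count filter, 0.651 CPM (gene counts scaled to a common library size), in at least 4 libraries. The other 7, all mitotic (Cdk1, Aurka, Cenpf, Bub1, Aurkb, Birc5 and Kif23), did not, so counts and medians over the members partly rest on genes near the detection limit in those hearts.

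The libraries are bulk RNA sequencing of stromal cells sorted from mouse hearts. Every animal, controls included, is given as C57BL/6 with the line name B6.129S4-Pdgfratm11(EGFP)Sor/J and as PDGFRa H2BEGFP+. In this line the Pdgfra gene drives a green nuclear protein, so the sort was aimed at cells that use Pdgfra. Markers of other cell types were still detected in the libraries. The sort kept green cells without the leukocyte protein CD45 and the endothelial protein CD31, and divided them by the surface protein Sca-1, the product of Ly6a. There were 6 libraries from day 7 after the LAD coronary artery was tied off to cause an infarct (1 Sca-1 positive, 1 Sca-1 negative and 4 whose labels give no gate), 4 from day 14 (2 positive, 2 negative), 7 from day 28 (4 positive, 3 negative) and 9 from undamaged hearts (5 positive, 4 negative). The labels give no age, no sham operation and no animal for a library, so p-values measure the spread between libraries, which may be technical.

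A cell that divides first loads a ring of Mcm proteins onto its replication origins, copies its DNA in S phase with the help of Pcna and newly made nucleotides, and then separates the chromosomes on a spindle whose kinases, motors and checkpoint proteins are made mostly in G2 and M. Replication genes are transcribed from late G1 and are also read at a basal level in many resting cells, whereas mitotic transcripts are low outside cycling cells. Cardiac fibroblasts are known to leave quiescence and divide in the first days after infarction and to stop dividing as the scar matures.

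Depth was 6792786 to 48836726 gene counts per library, and 3 counts, the detection floor used here, corresponded to 0.0614 to 0.442 CPM. Fibroblast markers (Pdgfra, Tcf21, Dcn, Lum, Col1a1 and Pdgfrb) summed to 22022 to 52128 CPM, and Pdgfra itself was at 342 to 809 CPM in every library. Ly6a was at 280 to 1284 CPM in the gated positive libraries and at 18.8 to 91.9 CPM in the gated negative ones. The positive day 28 library E2 had the lowest depth and 55.8% of its reads outside genes, against 5.53% to 18.7% elsewhere. The undamaged libraries A6 negative, B7 negative and B7 positive listed fewer genes (12325 to 12977, against at least 14041 elsewhere), and members at 0 counts were frequent there (18, 12 and 5 of the 40). Xist was above 20 CPM in 4 day 7 and 2 day 14 libraries and in none of the others. By the codes in their titles 16 libraries carry a number before the code (called prefixed here, 4 at each time) and 8 do not (letter-coded, 5 undamaged and 3 of day 28).

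The mitotic genes rose together at day 7 while most replication genes did not pass the test. Of the 40 genes, 25 rose and 0 fell at day 7 against undamaged hearts (edgeR quasi-likelihood test, Benjamini-Hochberg adjusted p under 0.05 over 13392 genes), where 11.5% of all genes rose and 11.2% fell. The 25 comprised 22 of the 23 mitotic genes, 2 of the 15 replication genes and 1 of the 2 entry cyclins. The median log2 difference was 2.64 for the mitotic genes and 0.28 for the replication genes, against -0.04 for all genes. In bulk libraries a larger share of cycling cells and more transcript per cell cannot be told apart. Comparisons with undamaged hearts at the 3 times share the same 9 libraries.

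**Figure D1:**
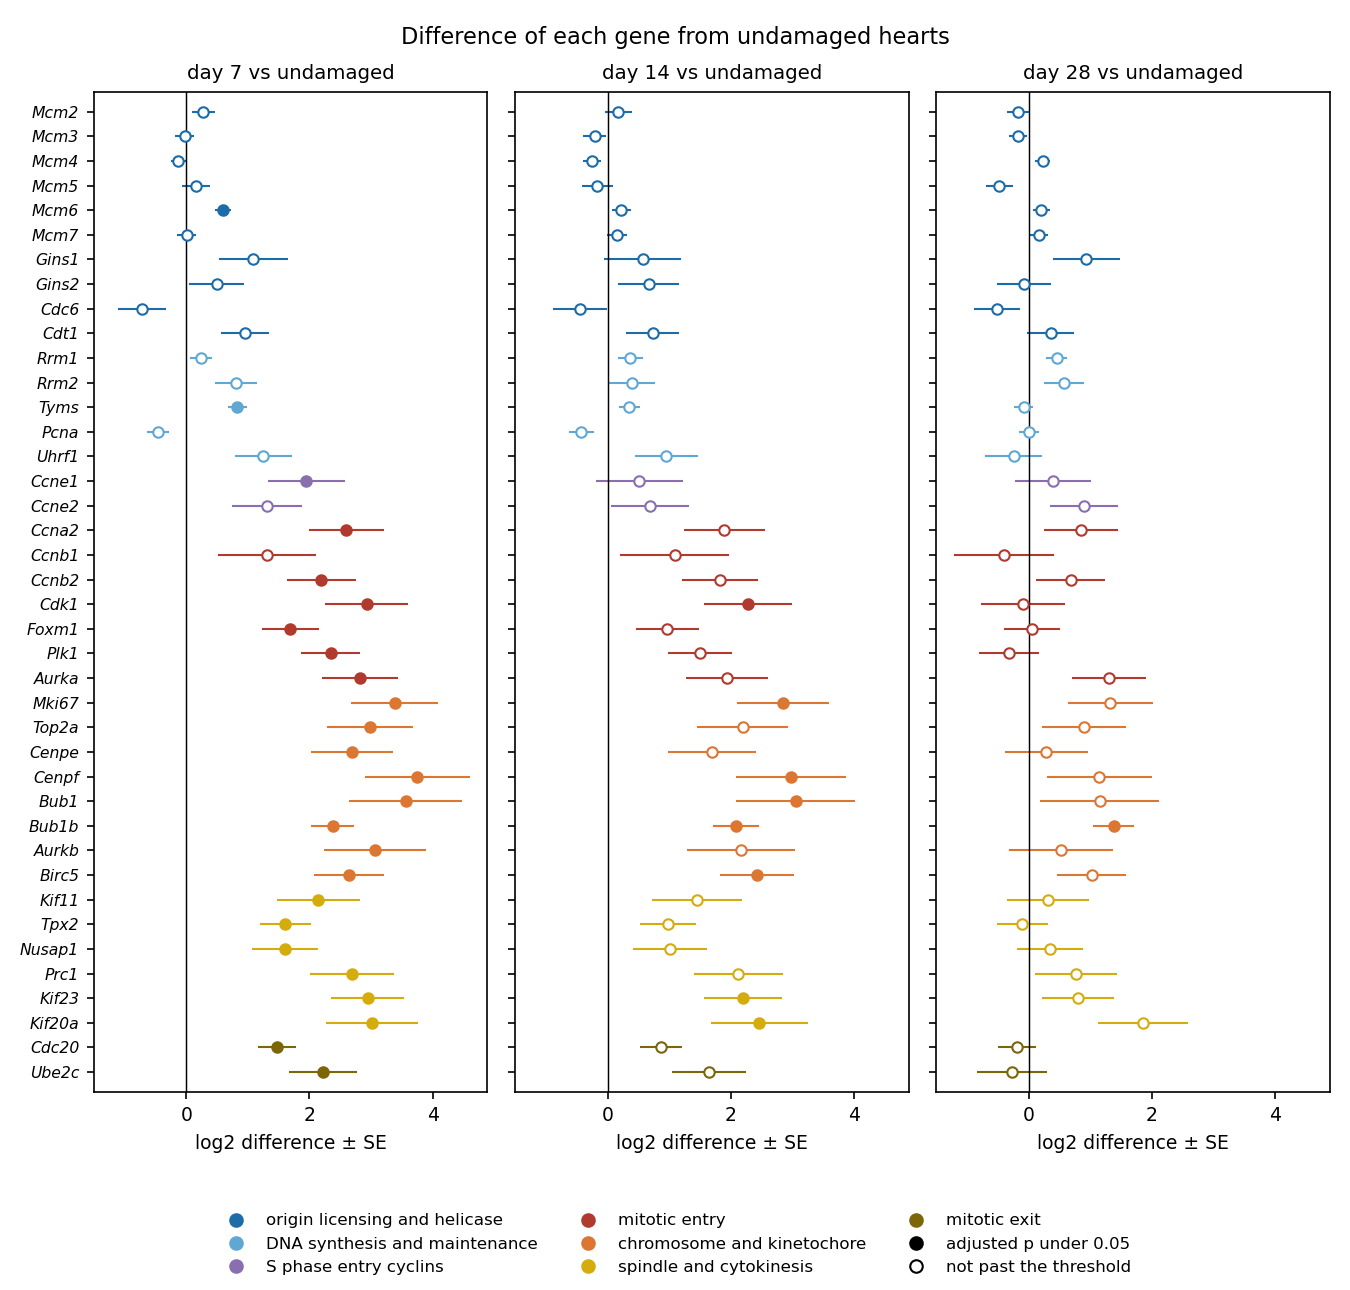
Difference of each of the 40 genes from undamaged hearts (log2, edgeR, with standard error), by day after ligation and coloured by role; filled points passed the adjusted p threshold of 0.05. At day 7 the mitotic genes lie between 1.31 and 3.76, while the 6 Mcm genes lie between -0.13 and 0.59.

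Among the genes of mitotic entry, 6 of 7 rose at day 7. Plk1, a kinase that drives entry into mitosis and spindle assembly, was at 2.55 to 7.41 CPM at day 7 (median 4.61), against 0 to 1.70 CPM (median 0.702) in undamaged hearts. The ranges did not overlap, and the log2 difference was 2.35 ± 0.48 (SE, adjusted p = 0.000712). Ccna2, the cyclin of S phase and G2, was at 7.16 to 13.1 CPM (median 8.22) at day 7, against 0 to 3.47 CPM (median 1.13), again without overlap (2.60 ± 0.61, adjusted p = 0.00271). Foxm1, the transcription factor of many G2 and M genes, was at 6.66 to 10.02 CPM (median 7.23) at day 7, against 0 to 7.67 CPM (median 1.89). Its ranges overlapped through 1 undamaged library, B7 positive, and without it the undamaged libraries reached 2.92 CPM at most (1.69 ± 0.46, adjusted p = 0.00814). Cdk1, the kinase that mitotic cyclins activate, Ccnb2 and Aurka rose by 2.93, 2.20 and 2.83 on the log2 scale. Ccnb1, the main mitotic cyclin, was the one mitotic gene that did not pass the test. It was at 1.41 to 4.07 CPM at day 7 and at 0 to 4.18 CPM in undamaged hearts, where B7 positive was the highest of all libraries (1.31 ± 0.80, adjusted p = 0.253).

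All 8 chromosome and kinetochore genes rose at day 7. Mki67, which coats mitotic chromosomes and gives the proliferation marker Ki-67, was at 7.58 to 24.6 CPM (median 15.2) at day 7, against 0 to 4.22 CPM (median 1.88) in undamaged hearts. The ranges did not overlap (3.39 ± 0.70, adjusted p = 0.000890). Top2a, which untangles sister DNA, was at 11.3 to 25.9 CPM (median 15.1) at day 7, against 0 to 6.16 CPM (median 1.25), without overlap (2.99 ± 0.70, adjusted p = 0.00252). Bub1b, the spindle checkpoint kinase-like protein BubR1, had the smallest adjusted p of all 40 genes. It was at 3.39 to 6.55 CPM (median 4.76) at day 7, against 0.134 to 1.62 CPM (median 0.909), without overlap (2.38 ± 0.35, adjusted p = 1.43e-05). Birc5, which encodes survivin of the chromosomal passenger complex, was at 1.54 to 4.37 CPM (median 3.44) at day 7 and at 0 to 1.58 CPM (median 0.237) in undamaged hearts, so that a day 7 library, 4A, fell just inside the undamaged range (2.64 ± 0.57, adjusted p = 0.00120). The largest fitted differences, 3.76 for Cenpf and 3.56 for Bub1, came from genes with undamaged medians of 0.203 and 0 CPM, below or near the detection floor, so those fitted values move with the prior count that edgeR adds.

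All 6 spindle and cytokinesis genes and both genes of mitotic exit rose at day 7. Kif23, a motor of the central spindle, was at 1.74 to 8.59 CPM (median 4.61) at day 7, against 0 to 1.75 CPM (median 0.394) in undamaged hearts (2.95 ± 0.59, adjusted p = 0.000611). Prc1, which bundles central spindle microtubules, was at 4.43 to 15.7 CPM (median 10.4) at day 7, against 0 to 4.38 CPM (median 1.23), without overlap (2.69 ± 0.68, adjusted p = 0.00475). Cdc20, the activator of the anaphase-promoting complex, was at 3.82 to 10.4 CPM (median 6.34) at day 7, against 1.47 to 4.30 CPM (median 2.02) (1.48 ± 0.31, adjusted p = 0.000903). Tpx2, Kif11, Nusap1, Kif20a and the ubiquitin-conjugating enzyme gene Ube2c rose by 1.60 to 3.02 on the log2 scale. Over all members, 13 had every day 7 library above every undamaged one (11 mitotic genes, Uhrf1 and Ccne1), against 4.47% of all genes tested.

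Differences of the replication genes at day 7 were smaller. Mcm6, a subunit of the Mcm helicase, was the one helicase gene that rose. It was at 32.0 to 49.3 CPM (median 40.4) at day 7, against 17.5 to 33.2 CPM (median 27.6) (0.59 ± 0.14, adjusted p = 0.00219). Mcm2 was at 6.12 to 14.7 CPM (median 10.1) at day 7, against 7.45 to 11.7 CPM (median 7.84), and its range enclosed the undamaged one (0.28 ± 0.19, adjusted p = 0.311). Mcm5 was at 5.77 to 8.21 CPM (median 7.19) at day 7, against 4.70 to 10.7 CPM (median 5.45) (0.16 ± 0.22, adjusted p = 0.660). Mcm3, Mcm4 and Mcm7 differed by -0.03, -0.13 and 0.00 on the log2 scale, each with a standard error of 0.12 to 0.16. Gins1 and Gins2, subunits of the complex that activates the Mcm ring, differed by 1.09 ± 0.56 and 0.49 ± 0.45 and did not pass the test (adjusted p = 0.171 and 0.465).

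Tyms, thymidylate synthase, rose at day 7. It was at 12.3 to 25.5 CPM (median 19.4) at day 7, against 7.83 to 14.8 CPM (median 9.90) in undamaged hearts (0.82 ± 0.16, adjusted p = 0.000323). Reads of its pseudogene row Tyms-ps may be split with it. Rrm1, the large subunit of ribonucleotide reductase, was at 35.9 to 69.9 CPM (median 51.3) at day 7, against 33.5 to 52.5 CPM (median 43.6), and did not pass the test (0.24 ± 0.18, adjusted p = 0.364). Rrm2, the subunit that limits the enzyme in cycling cells, differed by 0.81 ± 0.34 (adjusted p = 0.0842). The DNA methylation maintenance gene Uhrf1 was at 4.43 to 8.06 CPM at day 7, against 0 to 3.38 CPM, without overlap (1.25 ± 0.46, adjusted p = 0.0510). Pcna, the sliding clamp of the replication fork, lay the other way. It was at 35.3 to 42.5 CPM (median 39.4) at day 7, against 24.3 to 67.9 CPM (median 59.6) (-0.46 ± 0.17, adjusted p = 0.0570). The undamaged libraries A6 negative and positive, at 24.3 and 40.3 CPM, reached into or below the day 7 range, and the other 7 undamaged libraries were above it. Without the 3 undamaged libraries that listed the fewest genes, Pcna fell by 0.62 on the log2 scale (adjusted p = 0.00329), and within prefixed libraries it differed by -0.04 (adjusted p = 0.890).

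The cyclins of S phase entry bind Cdk2 and start DNA synthesis. Ccne1 was at 1.81 to 3.96 CPM (median 2.63) at day 7, against 0 to 1.58 CPM (median 0.614) in undamaged hearts, and rose without overlap (1.95 ± 0.62, adjusted p = 0.0238). Ccne2 was at 1.61 to 3.47 CPM (median 2.61) at day 7, against 0.0406 to 2.27 CPM (median 1.03), and did not pass the test (1.31 ± 0.57, adjusted p = 0.0960).

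Other genes of the pathway were taken from lists, which were chosen with earlier results of these data known. Of all genes, 11.5% rose and 11.2% fell at day 7. Of 43 other mitotic genes, 42 could be tested, 31 rose and 1 fell, with a median log2 difference of 2.51. Anln, an actin-binding protein of the cleavage furrow, was at 7.45 to 17.6 CPM at day 7 and 1.47 to 5.35 CPM in undamaged hearts (2.04 ± 0.29, adjusted p = 8.28e-06). The one that fell was Pttg1, the gene of securin, which holds separase until anaphase. It was at 8.66 to 19.6 CPM (median 15.4) at day 7, against 12.5 to 33.7 CPM (median 27.5) (-0.80 ± 0.19, adjusted p = 0.00273). Of 34 other replication genes, 32 could be tested, 4 rose (Clspn, Dut, Dbf4 and Gins4) and 0 fell, with a median of 0.30. Of 19 regulators of G1 and of the retinoblastoma pathway, 4 rose (E2f8, Cdk6, E2f3 and Rbl1) and 1 fell, with a median of 0.24. E2f8, an atypical repressor of the E2F family, was at 0.471 to 2.41 CPM at day 7, against 0 to 0.270 CPM. Cdk6, a partner of the D cyclins, was at 6.16 to 15.2 CPM at day 7, against 3.68 to 8.30 CPM (0.96 ± 0.23, adjusted p = 0.00294). Ccnd1, the D cyclin that drives exit from G1, fell to 33.3 to 133 CPM (median 78.9) at day 7, against 107 to 254 CPM (median 181) in undamaged hearts (-1.20 ± 0.27, adjusted p = 0.00163).

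The day 7 counts depend on which libraries enter. Within prefixed libraries alone (4 at each time) 10 members rose at day 7, 9 of them mitotic, and without the libraries with Xist above 20 CPM 12 rose, 10 of them mitotic. The mitotic median was 2.20 and 2.81 in these fits, against 2.64 with all libraries. Calls over all genes were 2555 and 880, against 3048. The fit without the Xist libraries left out 4 of the 6 day 7 libraries. Markers of other cell types moved as well. Of 9 leukocyte and macrophage markers tested, 5 rose at day 7, and the 10 listed (Ptprc, Cd68, Adgre1, Csf1r, Lyz2, C1qa, C1qb, Fcgr1, Tyrobp and Itgam) summed to 6.43 to 34.8 CPM in undamaged hearts, 26.8 to 59.1 CPM at day 7, 10.3 to 22.7 CPM at day 14 and 7.16 to 29.2 CPM at day 28. Ptprc, the CD45 gene, was at 0.377 to 2.05 CPM at day 7, against 0 to 1.09 CPM in undamaged hearts. All 8 endothelial markers fell at day 7, with summed levels of 105 to 178 CPM at day 7 against 190 to 365 CPM in undamaged hearts, and of 6 fibroblast markers 1 rose and 3 fell. The part of these cells in the day 7 levels of the cell cycle genes was not tested.

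Promoters were searched for 3 motifs by class of gene, and 5 are printed as examples of both classes (RefSeq, GRCm38.p6, 250 bases before to 50 after the annotated start, written on the gene's strand). Capitals mark the motifs, searched on both strands, so that a motif can also appear as its reverse complement: TTTGAA, the core of the cell cycle homology region (CHR) known from promoters of mitotic genes, CCAAT, and TTTNNCGC, a core of E2F sites. Overlapping matches run together. Bub1b (chr2:118597961-118598260, + strand), Plk1 (chr7:122159185-122159484, + strand) and Cdk1 (chr10:69352863-69353162, - strand) were shown as mitotic genes that rose, Mcm6 (chr1:128359656-128359955, - strand) as the helicase gene that rose and Mcm5 (chr8:75109259-75109558, + strand) as one that did not pass the test.
Bub1b promoter: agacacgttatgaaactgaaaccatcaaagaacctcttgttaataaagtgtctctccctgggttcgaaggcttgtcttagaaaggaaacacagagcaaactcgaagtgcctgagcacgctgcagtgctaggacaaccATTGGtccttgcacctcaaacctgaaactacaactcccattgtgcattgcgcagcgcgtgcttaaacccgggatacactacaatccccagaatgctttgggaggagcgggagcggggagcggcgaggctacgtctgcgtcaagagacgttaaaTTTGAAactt
Plk1 promoter: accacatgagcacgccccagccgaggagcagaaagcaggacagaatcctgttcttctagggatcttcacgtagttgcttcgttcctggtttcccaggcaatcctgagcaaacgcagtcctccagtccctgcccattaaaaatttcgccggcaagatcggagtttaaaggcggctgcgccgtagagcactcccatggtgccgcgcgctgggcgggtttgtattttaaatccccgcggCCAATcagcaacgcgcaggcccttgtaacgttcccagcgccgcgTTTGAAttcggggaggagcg
Cdk1 promoter: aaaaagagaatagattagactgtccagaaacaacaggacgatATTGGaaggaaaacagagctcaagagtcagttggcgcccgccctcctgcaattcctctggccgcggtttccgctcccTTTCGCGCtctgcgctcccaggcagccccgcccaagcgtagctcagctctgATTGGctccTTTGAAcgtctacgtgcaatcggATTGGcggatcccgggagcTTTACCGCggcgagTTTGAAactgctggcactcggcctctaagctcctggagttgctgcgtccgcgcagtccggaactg
Mcm6 promoter: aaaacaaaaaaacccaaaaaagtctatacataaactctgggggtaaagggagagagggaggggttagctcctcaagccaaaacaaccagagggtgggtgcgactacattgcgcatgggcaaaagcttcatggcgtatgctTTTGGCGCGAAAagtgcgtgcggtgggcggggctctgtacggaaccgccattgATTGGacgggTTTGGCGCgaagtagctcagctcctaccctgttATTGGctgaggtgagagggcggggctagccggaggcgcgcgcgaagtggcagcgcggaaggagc
Mcm5 promoter: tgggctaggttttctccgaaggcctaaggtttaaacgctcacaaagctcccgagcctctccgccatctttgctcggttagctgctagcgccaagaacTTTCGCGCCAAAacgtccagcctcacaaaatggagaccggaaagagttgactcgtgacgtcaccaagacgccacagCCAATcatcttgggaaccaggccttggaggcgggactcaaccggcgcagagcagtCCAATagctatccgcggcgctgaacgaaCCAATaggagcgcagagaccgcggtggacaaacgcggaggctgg
Of the 40 genes, 31 had 34 promoters in the table. TTTGAA stood in 14 of 19 promoters of mitotic genes (73.7%) and in 1 of 14 promoters of replication genes (7.14%, the promoter of Mcm2), against 17.9% of all 32851 promoters. TTTNNCGC stood in 1 of 19 mitotic promoters (5.26%, that of Cdk1) and in 9 of 14 replication promoters (64.3%), against 5.17% of all promoters. CCAAT was frequent in both classes, with 89.5% of mitotic and 78.6% of replication promoters against 37.4% of all. These are matches of letters within the windows and not sites shown to be bound, and Birc5 and Nusap1 rose with no match to any of the 3 motifs in their windows. The classes are those of the gene list and not of how the genes moved: Mcm6 and Tyms are counted with the replication genes and Ccnb1 with the mitotic ones.

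At day 14 a minority of the mitotic genes passed the test. At day 14 against undamaged hearts 8 of the 40 genes rose and 0 fell, where 5.84% of all genes rose and 3.14% fell (8.98% in either direction). All 8 were mitotic (Cenpf, Cdk1, Birc5, Kif20a, Bub1b, Bub1, Mki67 and Kif23). Of these, Cenpf, Cdk1, Birc5, Bub1 and Kif23 did not reach the filter level in at least 4 undamaged libraries. They could be tested only because libraries of later times, where they were higher, passed it. The median log2 difference was 1.94 for mitotic genes, all 23 of which were above 0, and 0.23 for replication genes, against -0.03 for all genes. Every day 14 library was above every undamaged one for 13 members, all mitotic, against 4.35% of all genes.

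**Figure D2:**
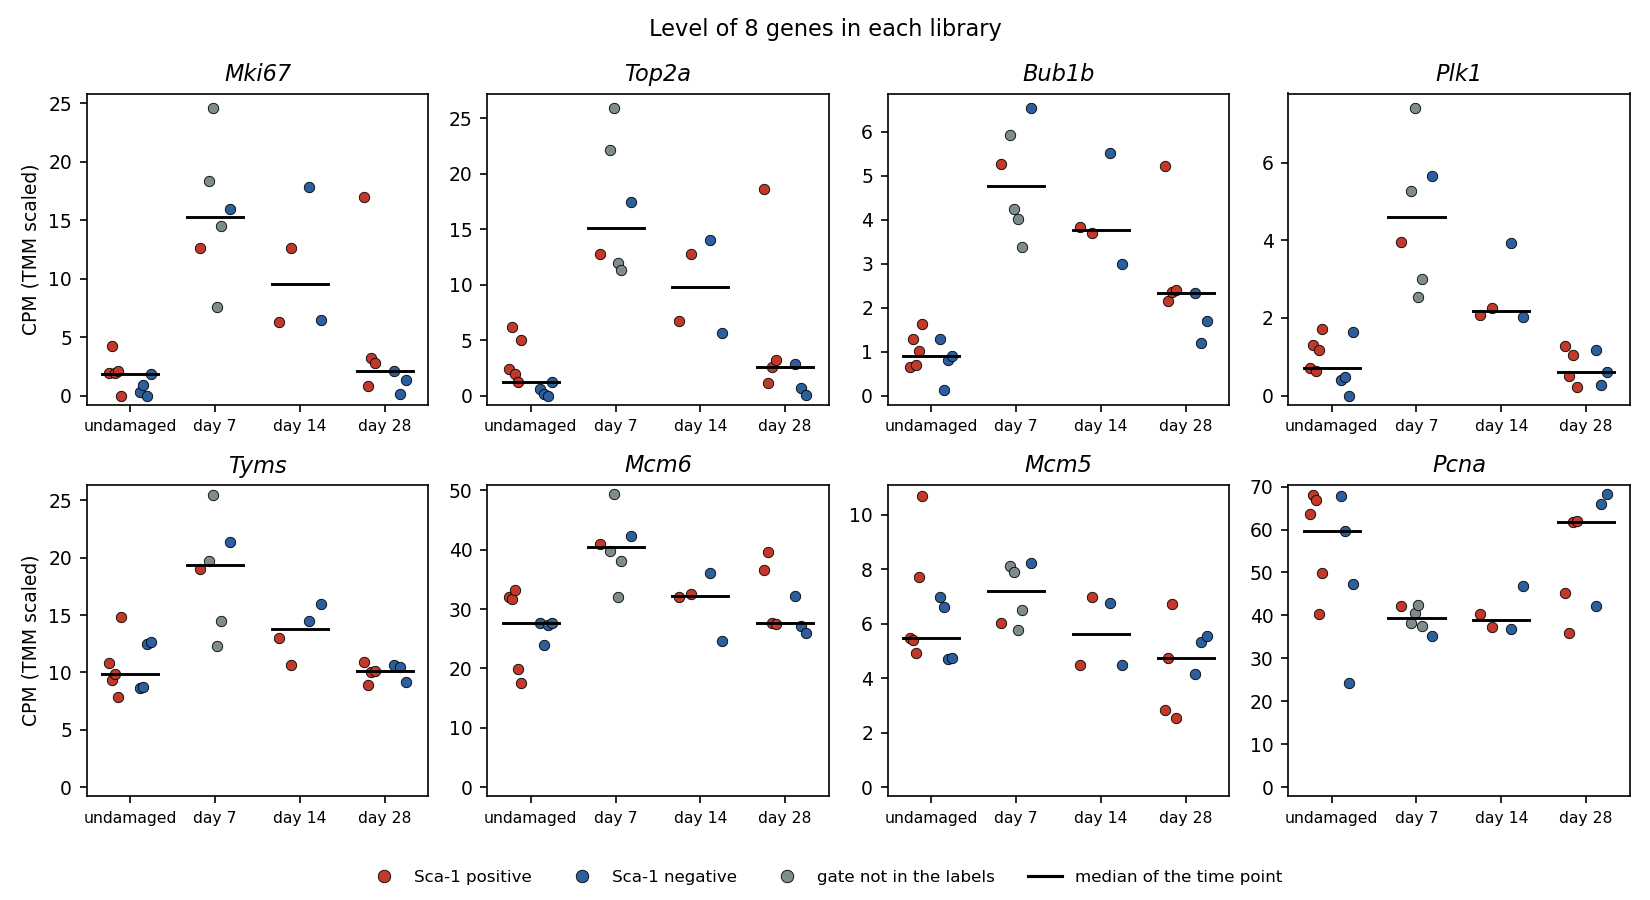
Level of 8 genes in each of the 26 libraries (CPM with TMM scaling, 1 point a library), by time and coloured by Sca-1 gate, with the median of each time as a line. For Mki67, Top2a, Bub1b and Plk1 the day 7 libraries stand above all undamaged ones, and E2 (16.9 CPM for Mki67) is the highest day 28 library, while Mcm5 and Pcna overlap between all times.

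Mki67 was at 17.8 and 6.50 CPM in the negative and at 6.26 and 12.6 CPM in the positive day 14 libraries, against 0 to 4.22 CPM (median 1.88) in undamaged hearts (2.85 ± 0.74, adjusted p = 0.0140). Bub1b was at 5.52 and 2.99 CPM in the negative and 3.83 and 3.71 CPM in the positive day 14 libraries, against 0.134 to 1.62 CPM (2.08 ± 0.37, adjusted p = 0.000417). Birc5 was at 3.17, 2.73, 2.76 and 2.40 CPM at day 14, against 0 to 1.58 CPM (2.43 ± 0.61, adjusted p = 0.00981). For all 3 genes the day 14 and undamaged libraries did not overlap, and among the day 14 libraries D1 negative was the highest. Plk1 (1.5 ± 0.52, adjusted p = 0.0724), Ccna2 (1.90 ± 0.66, adjusted p = 0.0724) and Prc1 (2.13 ± 0.73, adjusted p = 0.0670) lay without overlap above undamaged hearts but did not pass the test.

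The replication genes gave no call at day 14. Mcm6 was at 36.1, 32.0, 24.7 and 32.5 CPM at day 14, against 17.5 to 33.2 CPM (median 27.6) in undamaged hearts (0.23 ± 0.15, adjusted p = 0.444). Tyms was at 14.5, 13.02, 16.0 and 10.7 CPM, against 7.83 to 14.8 CPM (0.36 ± 0.18, adjusted p = 0.237). Pcna was at 36.8, 40.4, 46.9 and 37.4 CPM, against 24.3 to 67.9 CPM (median 59.6) (-0.42 ± 0.20, adjusted p = 0.209). Of the other pathway genes, 15 of 42 other mitotic genes, 0 of 32 other replication genes and 2 of 19 G1 regulators rose at day 14, and none fell. Of all genes, 5.84% rose and 3.14% fell. Among the markers 2 of 8 endothelial ones fell at day 14, with summed levels of 144 to 228 CPM against 190 to 365 CPM in undamaged hearts, 1 of 6 fibroblast markers rose and 2 fell, and 0 of 9 leukocyte markers passed the test. Their part in the day 14 levels was not tested.

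The day 14 count rests on few libraries. It was 2 (Bub1b and Birc5) without D1 negative, 3 without D9 positive, 4 without D9 negative and 5 without any one of D1 positive and the undamaged E1 positive, F3 positive, E5 negative and F3 negative, and it was 14 without B7 positive. It was 3 (Cenpf, Bub1b and Mki67) within prefixed libraries, 1 (Bub1b) without the libraries with Xist above 20 CPM and 17 without the 3 sparse undamaged libraries, when Pcna fell. Against day 7, 0 of the 40 genes passed the test at day 14 in either direction, where 0.0149% of all genes did. The mitotic median was -0.63, 0 of the 23 mitotic genes was above 0, and 2 of the 40 genes (Mcm6 and Tyms) had an unadjusted p under 0.05, as did 1217 of all 13392 genes.

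By day 28 only 1 of the 40 genes passed the test against undamaged hearts, a smaller share than that of all genes. Bub1b rose at day 28 and no other of the 40 genes passed the test, where 3.45% of all genes rose and 1.94% fell (5.39% in either direction). Bub1b was at 1.20 to 5.23 CPM (median 2.34) at day 28, against 0.134 to 1.62 CPM (median 0.909) in undamaged hearts, and the 7 libraries overlapped the undamaged range only through B4 negative (1.38 ± 0.34, adjusted p = 0.0140). Over its alternatives the adjusted p ran between 0.00143 and 0.235. It was 0.235 within prefixed libraries (0.78), 0.0539 within letter-coded libraries (1.95), 0.0602 with limma-voom, 0.125 in limma-voom with the library code as a block at an estimated correlation, and 0.0531 without the libraries with Xist above 20 CPM. No member had all day 28 libraries above all undamaged ones, against 0.933% of all genes.

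The mitotic level at day 28 is mainly that of 1 library. E2 had the highest level of the 7 day 28 libraries for 22 of the 23 mitotic genes, all but Ube2c, and for 3 of the 15 replication genes. Mki67 was at 16.9 CPM in E2 and at 0.142 to 3.23 CPM in the other 6 day 28 libraries, against 0 to 4.22 CPM in undamaged hearts. Top2a was at 18.6 CPM in E2 and at 0.0683 to 3.21 CPM in the others, against 0 to 6.16 CPM in undamaged hearts. Ccne2 was at 7.63 CPM in E2, the highest of all 26 libraries. The mitotic median against undamaged hearts was 0.69 with E2, -0.20 without it, -0.08 within prefixed and 1.09 within letter-coded libraries, and Mki67 differed by 1.32 ± 0.69 with it and by 0.19 ± 0.64 without it. Bub1b still passed the test without E2 (1.10 ± 0.33, adjusted p = 0.0473). In E2 the leukocyte markers summed to 10.2 CPM, within the range of the other day 28 libraries, and the endothelial ones to 265 CPM, the highest at day 28. Over all 7 day 28 libraries 4 of 8 endothelial markers fell, 2 of 6 fibroblast markers rose and 0 of 9 leukocyte markers passed the test against undamaged hearts, and their part was not tested. The part of the low depth and the reads outside genes in the levels of E2 was not tested.

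**Figure D3:**
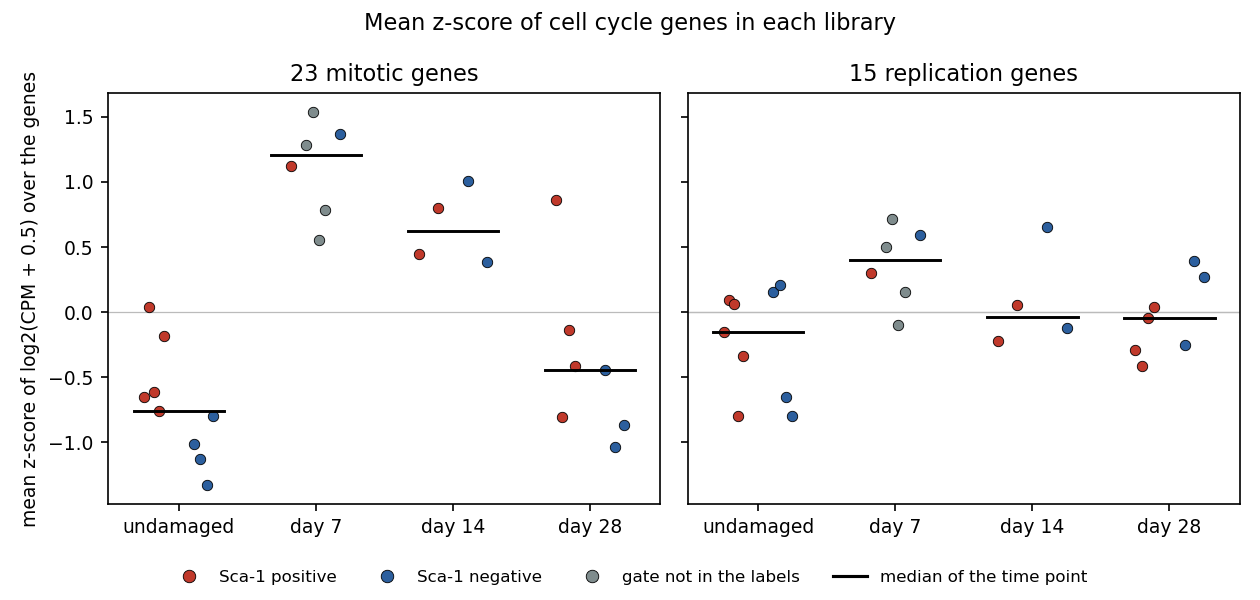
Mean z-score of the mitotic genes (left) and the replication genes (right) in each library, from log2(CPM + 0.5) scaled over the 26 libraries for each gene, by time and coloured by gate, with the median of each time. Mitotic scores run from 0.55 to 1.54 at day 7 and from 0.39 to 1.01 at day 14, and 1 day 28 library (E2, 0.86) stands apart from the other 6 (-1.04 to -0.14).

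The mean z-scores put the time courses of both classes side by side. The mitotic score ran from -1.33 to 0.04 in undamaged hearts, from 0.55 to 1.54 at day 7, from 0.39 to 1.01 at day 14 and from -1.04 to 0.86 at day 28. All day 7 and day 14 libraries were above all undamaged ones. The replication score ran from -0.80 to 0.20 in undamaged hearts, from -0.10 to 0.71 at day 7, from -0.22 to 0.65 at day 14 and from -0.41 to 0.39 at day 28, so each pair of times overlapped. For the 10 Mcm, Gins and Rrm genes alone the mean score was -0.30 ± 0.45 in undamaged hearts, 0.35 ± 0.36 at day 7, 0.05 ± 0.52 at day 14 and 0.05 ± 0.24 at day 28 (SD, n = 9, 6, 4 and 7). The members chosen set these scores, which carry no test.

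Among the replication genes Pcna and Rrm1 went by library family at day 28. Pcna was at 61.7 to 68.2 CPM in the 4 prefixed day 28 libraries and at 24.3 to 49.8 CPM in the 4 prefixed undamaged ones (0.65 ± 0.17, adjusted p = 0.0213). In letter-coded libraries it was at 35.9 to 45.2 CPM in the 3 of day 28 and at 59.6 to 67.9 CPM in the 5 undamaged ones (-0.68 ± 0.12, adjusted p = 0.00791). All 26 libraries together gave 0.01 ± 0.16 (adjusted p = 0.988). Rrm1 rose in the prefixed family (0.77 ± 0.20, adjusted p = 0.0198) and differed by -0.07 in the letter-coded one (adjusted p = 0.785), with 0.46 ± 0.17 (adjusted p = 0.114) in all libraries. Within the letter-coded family Cdc6 and Ccne1 were also lower at day 28. In the prefixed fit 2 of 40 members and 1514 of all 13083 genes were called in either direction. For the letter-coded fit it was 3 of 37 members and 1464 of all 12527 genes. In neither family were members called more often than all genes. What the codes stand for is not given in the sources used here.

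The direct comparison of day 28 with day 7 gave 9 members that fell and 0 that rose, where 6.13% of all genes rose and 5.5% fell. They were the mitotic genes Cdk1, Tpx2, Ube2c, Cenpe, Cdc20, Foxm1, Plk1 and Kif23 and the nucleotide gene Tyms. Plk1 was at 0.229 to 1.27 CPM (median 0.615) at day 28, against 2.55 to 7.41 CPM (median 4.61) at day 7, without overlap (-2.66 ± 0.54, adjusted p = 0.00159). Cdk1 was at 0.0708 to 2.12 CPM (median 0.803) at day 28, against 2.48 to 10.1 CPM (median 7.51) at day 7, without overlap (-3.01 ± 0.76, adjusted p = 0.00959). Tyms was at 8.88 to 10.9 CPM (median 10.1) at day 28, against 12.3 to 25.5 CPM (median 19.4) at day 7, without overlap (-0.90 ± 0.17, adjusted p = 0.000728). The mitotic median was -1.83, the replication median -0.24 and that of all genes 0.02. Mki67 (-2.06 ± 0.74, adjusted p = 0.0692) and Top2a (-2.08 ± 0.75, adjusted p = 0.0687) did not pass the test, and without E2 the count was 22. The count was 3 (Cdc20, Tyms and Plk1) with the gate as a term in 22 libraries, 2 (Tyms and Plk1) without the libraries with Xist above 20 CPM, and without the 3 sparse undamaged libraries 25 fell and 1 rose.

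Day 28 against day 14 gave no call among the 40 genes, where 1.66% of all genes rose and 1.52% fell (3.18% in all), and 11 had an unadjusted p under 0.05, as did 2195 of all 13392 genes. All 23 mitotic genes were below 0, with a median of -1.36, and the replication median was -0.02. DESeq2 called 3 genes lower (Plk1, Cdk1 and Ube2c). Of the other genes of the pathway, 2 of 42 other mitotic genes (Anln and Cdc25c), 0 of 32 other replication genes and 0 of 19 G1 regulators rose at day 28 against undamaged hearts. In that comparison 3.45% of all genes rose, a share near that of the other mitotic genes. Anln was at 5.74 to 17.5 CPM (median 7.45) at day 28, against 1.47 to 5.35 CPM (median 2.91) in undamaged hearts, without overlap (1.39 ± 0.28, adjusted p = 0.00257). Cdc25c, a phosphatase that activates Cdk1, was at 0 to 0.459 CPM at day 28, against 0 to 0.0540 CPM in undamaged hearts, near or below the detection floor.

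Between the gates, 2 mitotic genes passed the test in undamaged hearts, with higher fitted levels in the Sca-1 positive libraries. Each call was kept in only 2 of the 9 fits that left out an undamaged library. Kif23 and Birc5 were higher in the positive gate and 0 members were lower, in a fit of 20 gated libraries and 13812 genes where 1.65% of all genes were higher and 1.45% lower (3.1% in all). Kif23 was at 0.540, 1.57, 0.394, 0.652 and 1.75 CPM in the positive libraries, against 0.137, 0.201, 0.0810 and 0 CPM in the negative ones (3.17 ± 0.83, adjusted p = 0.0396). Birc5 was at 0.648, 1.08, 0.542, 0.237 and 1.58 CPM in the positive libraries, against 0.205, 0.134, 0 and 0 CPM in the negative ones (3.18 ± 0.84, adjusted p = 0.0418). Neither gene overlapped between the gates, and the negative levels lie at or below the detection floor of their libraries. Both are among the 7 members that did not reach the filter level in at least 4 undamaged libraries. Over the 23 mitotic genes the median was 0.85 and 22 were above 0, over the 15 replication genes 0.07, and over all genes 0.01. The mitotic median was 2.05 without B7 negative, 1.4 without the 3 sparse libraries, 1.49 with limma-voom and 1.32 with the library code as a block. It was lower, at 0.72, within prefixed libraries and without E3 positive, 0.73 without B7 positive and 0.80 without E5 negative.

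Neither gate call held with the library code as a block. The blocked fit gave 0 calls, with Kif23 at 3.11 ± 1.33 (adjusted p = 0.245) and Birc5 at 3.98 ± 1.42 (adjusted p = 0.162), and the count was also 0 without the 3 sparse undamaged libraries and without any one of E1 positive, E3 positive, F3 negative, A6 negative, B7 negative and B7 positive, and 1 without F3 positive or E5 negative. In undamaged hearts the summed mitotic level was 21.8 to 52.9 CPM in the 5 positive libraries and 14.6, 12.1, 12.5 and 26.03 CPM in the negative ones, so the groups overlapped through B7 negative.

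**Figure D4:**
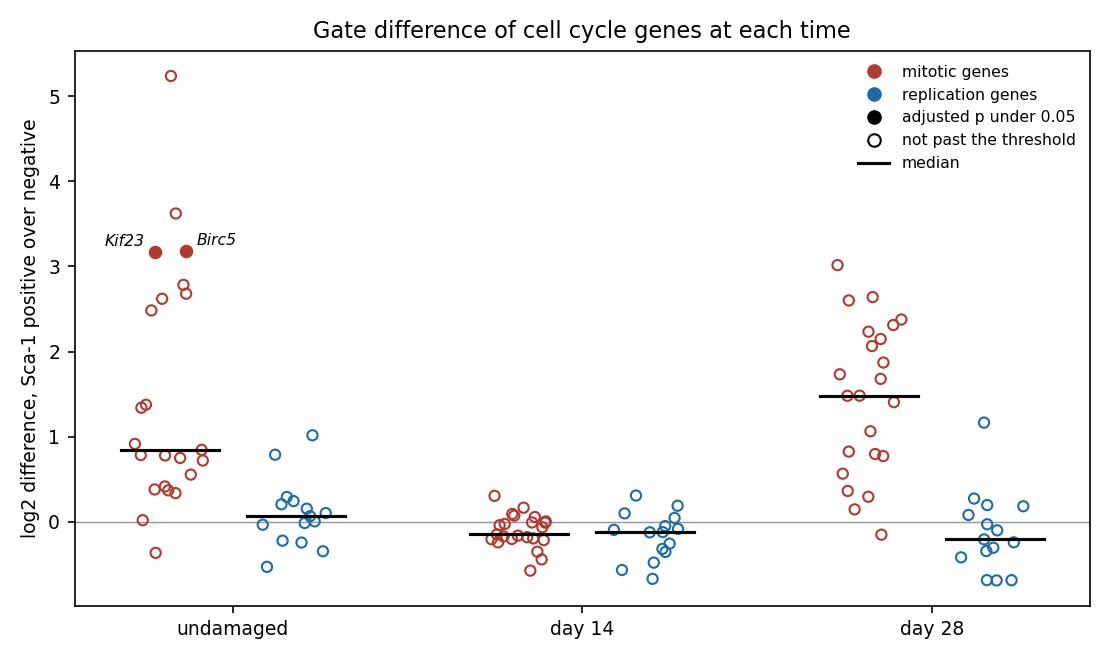
Gate difference (log2, Sca-1 positive over negative, edgeR) of each mitotic and replication gene in undamaged hearts, at day 14 and at day 28, with the median of each class as a line; filled points passed the adjusted p threshold of 0.05. Mitotic medians are 0.85 in undamaged hearts, -0.15 at day 14 and 1.48 at day 28, and replication medians are 0.07, -0.12 and -0.21.

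At day 14 no member differed between the gates (0.0507% of all genes did), and 0 of the 40 had an unadjusted p under 0.05, where 257 of all 13812 genes had one. With 2 libraries a gate the spread is borrowed from the other groups, and the mitotic median was -0.15. Its direction turned without D1 negative (0.37), without D1 positive (0.14) and with limma-voom (0.17), and it was -0.47 without D9 negative, -0.38 without D9 positive and -0.72 without the libraries with Xist above 20 CPM. At day 28 no member passed the test either, where 0.434% of all genes were higher and 0.159% lower (0.594% in all), and 5 of the 40 had an unadjusted p under 0.05, as did 2027 of all 13812 genes. There the mitotic median was 1.48, with 22 of 23 genes above 0, and it was 0.68 without E2. Mki67 was at 16.9, 0.788, 3.23 and 2.75 CPM in the positive day 28 libraries, against 2.07, 0.142 and 1.30 CPM in the negative ones (2.31 ± 1.19, adjusted p = 0.380). Mcm2 was at 7.20, 7.80, 7.28 and 8.71 CPM in the positive libraries, against 8.74, 8.21 and 4.92 CPM in the negative ones (0.08 ± 0.27, adjusted p = 0.928). The change of the gate difference from undamaged hearts, as an interaction term, gave 0 members at day 14 and 0 at day 28, where 0% of all genes passed, and 2 members had an unadjusted p under 0.05 at each time (edgeR), beside 202 of all genes at day 14 and 719 at day 28. The count was also 0 with DESeq2 and limma-voom.

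At day 7 the labels give each gate to 1 library. The gates of the other 4 libraries stand only in the names of their files, which were not used to group libraries, so no gate test was made at day 7. Mki67 was at 12.6 CPM in the positive and 16.0 CPM in the negative library, Top2a at 12.7 and 17.5 CPM, Bub1b at 5.26 and 6.55 CPM and Plk1 at 3.95 and 5.65 CPM. Mcm6 was at 41.0 CPM in the positive and 42.3 CPM in the negative library, and Tyms at 19.0 and 21.4 CPM. For these 6 genes the negative library was above the positive one, without a replicate of a labelled gate. Other members went the other way, namely Mcm2, Mcm4, Mcm7, Pcna, Aurka, Bub1, Kif11 and Nusap1. Pcna was at 42.3 CPM in the positive and 35.3 CPM in the negative library, and Mcm4 at 29.9 and 26.5 CPM. Among the 4 day 7 libraries without a labelled gate (1A, 1B, 4A and 4B) Mki67 was at 18.3, 24.6, 7.58 and 14.5 CPM. Ly6a was at 296 and 334 CPM in 1A and 4A, within the range of the gated positive libraries. In 1B and 4B it was at 35.9 and 31.6 CPM, within that of the gated negative ones.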

How the data were processed

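RNA was sequenced from sorted cells with the TruSeq Stranded mRNA kit on an Illumina NextSeq, paired end, per the labels' protocols. The submitters' processing notes name bcl2fastq, TopHat, Bowtie2, STAR, Cufflinks and mm10, and the counting program, its strand setting and its annotation are not given in the sources used here. The deposited files hold raw counts of reads per gene, made by the authors, for 24421 genes in each of 26 libraries. The 2 entries that name no gene were left out: reads outside genes were 5.53% to 55.8% and ambiguous reads 0.128% to 0.646% of a library. The number of columns of other samples was 0.

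Counts were scaled by TMM and tested with edgeR 4.0.16 (quasi-likelihood, R 4.3.3) after its low-count filter, in a fit by time (26 libraries, 13392 genes) and one by time and gate (20 libraries, 13812 genes), with Benjamini-Hochberg adjustment over all genes and a threshold of 0.05. CPM are TMM scaled. Depth was 6792786 to 48836726 counts a library, and the floor of 3 counts covers counting error only. limma 3.58.1 and DESeq2 1.42.0 gave alternatives. Levels were not compared between genes, since counts are not per length. Of the members 10 overlap another gene (Mcm7, Ccna2, Ccne2, Cdc20, Gins2, Kif20a, Nusap1, Prc1, Ube2c and Tpx2), so their counts may hold its reads.

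The 40 members and all gene lists were chosen with earlier results of these data known. Any member could be named. Library values are given for the member with the smallest day 7 p and the highest level in each role, for Mki67, Mcm2, Mcm5, Ccne1, Pcna and Foxm1 and for members called between gates or at day 28, and from each pathway list for the 3 genes with the smallest day 7 p. Values of other genes were added after they were seen. Gates of 4 day 7 libraries are not in the labels and were not used. Libraries of a time that share a code were treated as pairs only in the fits with the code as a block. The main fits had no such term, so these libraries entered them as independent. Over 7 code pairs of gated libraries the correlation of deviations was 0.259 to 0.424 over 13812 genes, and 14 of 14 libraries correlated best with their own code. The 2 day 14 pairs have equal correlations by construction, so the matches of the day 14 libraries stand or fall together and are not separate observations.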

Additional observations from a re-analysis of the deposited data

Results flagged for a closer look

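Of 140 groups of 4 to 10 values checked, 5 held a library far from the others, and chance flags about 1 in 20 such groups. Bub1b was at 5.23 CPM in the positive day 28 library E2, where the next positive library had 2.41 CPM. Plk1 was at 3.94 CPM in the negative day 14 library D1, with 2.26 CPM in the next day 14 library. Mcm2 was at 4.92 CPM in the negative day 28 library B6, with 7.20 CPM in the next lowest day 28 library. Mcm6 was at 23.9 CPM in the negative undamaged library F3, with 27.3 CPM in the next lowest negative one. Ccne2 was at 0.0406 CPM in the positive undamaged library B7, with 0.756 CPM in the next lowest positive one.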

How the results depend on the processing

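No member called over all libraries turned its direction under the alternatives run. Pcna at day 28, not called over all libraries, was called higher within prefixed and lower within letter-coded libraries. The mean z-scores by time of the mitotic, the replication and the Mcm, Gins and Rrm genes moved by less than 1 SD between libraries. The mean over all members at day 7 was 0.48 in place of 0.82 over the 16 members with a count in every library. Those 16 hold 12 replication and 3 mitotic genes, and their mitotic mean at day 7 was 1.13 in place of 1.11. The alternatives by library family, Xist and sparse libraries were chosen after seeing the data. Of the 25 members called at day 7, 10 were called within prefixed libraries and 12 without the libraries with Xist above 20 CPM. The day 14 count of 8 became 21 with limma-voom, 16 with the library code as a random replicate block in limma-voom, 3 within prefixed libraries, 1 without the Xist libraries and 17 without the 3 sparse undamaged libraries. The day 28 count of 1 became 0 with limma-voom, with that block and without the Xist libraries, 2 within prefixed libraries (Pcna and Rrm1, higher), 3 within letter-coded libraries (Cdc6, Pcna and Ccne1, lower) and 2 without the sparse libraries (Bub1b and Rrm2). For day 28 against day 7 the 9 became 17 with DESeq2, 21 with limma-voom, 14 with the block, 3 with the gate as a term, 2 without the Xist libraries and 26 without the sparse libraries (25 lower, 1 higher). For day 28 against day 14 the 0 became 3 with DESeq2, 5 with limma-voom, 3 within prefixed libraries and 6 without the sparse libraries. The 2 gate calls in undamaged hearts became 4 with DESeq2, 1 with limma-voom, 1 within prefixed libraries and 0 with no low-count filter, with the replicate block in edgeR, without the Xist libraries and without the sparse libraries. The replicate block changed no other gate count, each of which stayed at 0. Leaving out 1 library at a time gave 23 to 28 calls at day 7, 2 to 14 at day 14, 1 to 2 at day 28, 6 to 22 for day 28 against day 7, 0 to 1 for day 28 against day 14 and 0 to 2 for the gates in undamaged hearts. Calls kept in every such fit were 22 of 25 at day 7, 2 of 8 at day 14 and 1 of 1 at day 28. The causes of these changes were not tested. Genes near 3 counts are measured with little precision. Members at 0 counts were most frequent in the undamaged libraries A6 negative (18) and B7 negative (12), with 10883870 and 14700081 gene counts. The undamaged library B7 positive, with 21297670 gene counts, had 5 members at 0. The day 28 library E2, with the lowest depth of 6792786, had 0. The part of depth in these zeros was not tested.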
